A study of Mus musculus with 17 samples.

Results

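The 8 genes described here encode classical products of inflammatory macrophages. They are Tnf (tumour necrosis factor), Il6 (interleukin-6), the interleukin-12 family subunits Il12a, Il12b and Il23a, and the enzymes Nos2, Ptgs2 and Acod1. They were chosen by name, and each was measured by 1 probe set among the 15780 named genes of the array. The cells were macrophages sorted as F4/80hi from kidneys of the NZB/W strain, hybrid mice that develop lupus nephritis without any induction. The remission group (n = 4) came from mice 3 to 4 weeks after complete remission, which had been given 1 dose of cyclophosphamide, 6 doses of CTLA4Ig and antibody to CD154. The nephritic group (n = 7) came from mice 2 to 6 weeks after proteinuria began and before terminal renal failure, and the prenephritic group (n = 6) from mice 8 to 16 weeks old. Remission and the drugs went together in every sample, and the labels give no age for the nephritic and remission mice. The labels do not say whether a sample was 1 mouse or a pool, or that samples came from separate mice, so a p-value here covers the spread among the arrays, which may be partly technical.

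Macrophages switch these genes on when receptors for microbial or damage signals activate NF-kB, AP-1 and interferon-driven factors. Tumour necrosis factor and interleukin-6 are secreted and act on immune, vascular and epithelial cells. Interleukin-12 joins the products of Il12a and Il12b and drives interferon-gamma production by T and NK cells, and interleukin-23 joins the products of Il23a and Il12b and sustains T cells that make interleukin-17. The enzyme products are nitric oxide (Nos2, inducible nitric oxide synthase), prostanoids (Ptgs2, cyclooxygenase-2) and itaconate (Acod1, formerly Irg1), which is drawn from the Krebs cycle, inhibits succinate dehydrogenase and limits inflammation in cultured macrophages.

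The values are RMA log2 intensities, in which a step of 1 is a doubling of signal. They compare a gene between arrays and not with another gene, and differences of dim probe sets are compressed. A difference passed the test where limma's moderated p, adjusted by Benjamini-Hochberg over the 15780 genes, was under 0.05. Because these are bulk samples, fewer cells of a type and less RNA per cell cannot be told apart. The sorted cells' defining markers were present in all groups. Adgre1, which encodes the antigen used for the sort, averaged 13.23 in remission, 13.24 in nephritic and 13.08 in prenephritic arrays, and neither it nor Csf1r, Cd68 or Ptprc passed the test in any comparison. Of the 8 macrophage markers measured, 2 others did pass. Mertk, a receptor for dying cells, was higher in nephritic than in prenephritic arrays (1.22, adjusted p = 0.00122) and lower in remission than in nephritic arrays (−1.26, adjusted p = 0.00275), and so was Fcgr1, an Fc receptor (0.63, adjusted p = 0.00703, and −0.55, adjusted p = 0.0306). Nephritic replicate 6 stood apart on the genes described here, with the highest value of all 17 arrays for 7 of the 8, Il12a being the exception. It also had the highest mean of 20 immediate early genes (10.82, against 9.58 for the lowest nephritic array). Prenephritic replicate 5 had the lowest value of its group for 4 of the 8 genes and the lowest immediate early mean of its group (9.60, against a highest of 10.63). Prenephritic replicate 6 was lowest of its group for the other 4, and lowest of all 17 arrays for 4, against 2 for prenephritic replicate 5. RNA integrity as read from the Gapdh 3′ minus 5′ signal was 0.97 in nephritic replicate 6, inside the nephritic range of 0.94 to 1.15, and 0.92 in prenephritic replicate 5, the lowest of a range reaching 1.34. The actin 3′ minus 5′ signal was 0.73 in nephritic replicate 6, the highest of a nephritic range from 0.52, and 0.47 in prenephritic replicate 5, the lowest of a range reaching 0.84. Results are given below also without nephritic replicate 6 and prenephritic replicate 5. These arrays stood out on the genes described here, the first as high and the second as low. Leaving them out therefore tends by itself to lower nephritic minus prenephritic and to raise remission minus nephritic. It is not an independent check of these genes, and prenephritic replicate 6 was kept. Ranges over leaving out each array are in the closing section for differences that changed sign.

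Acod1 was the member that changed. In the 4 remission arrays its levels were 6.44, 6.48, 7.20 and 7.34. In the nephritic arrays they ran from 7.85 through a median of 9.14 to 10.93, and in the prenephritic arrays from 5.58 through 7.08 to 8.06. All 7 nephritic arrays lay above all 4 remission arrays, and 6 of 7 lay above every prenephritic array. Of these 6, nephritic replicate 4 (8.0593) was practically level with prenephritic replicate 2 (8.0584). Nephritic replicate 3 was below prenephritic replicate 2. Nephritic arrays spread the most, over 8.5-fold between the lowest and the highest, with replicates 6 and 1 at the top.

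Acod1 was 5.10-fold higher in nephritic than in prenephritic arrays (log2 difference 2.35 ± 0.51 SE, 95% interval 1.27 to 3.43, adjusted p = 0.00596 by limma). That was the 24th largest positive difference among the 15780 genes, of which 12.1% passed the same test, 6.74% being higher and 5.32% lower. Its level was 5.27-fold lower in remission than in nephritic arrays (log2 difference −2.40 ± 0.58, interval −3.62 to −1.18, adjusted p = 0.0117), the 12th largest negative difference. In that comparison 13.3% of all genes passed, 3.27% being higher and 10.0% lower. Remission and prenephritic levels differed by −0.05 ± 0.59 (interval −1.30 to 1.21, adjusted p = 0.970), an interval wide enough to hold a doubling either way. In that comparison 0.00634% of all genes passed, a single gene (Parvg, which is not among the 8). The comparisons share arrays, since the nephritic arrays enter 2 of them, so the rise and the fall are not separate pieces of evidence.

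Without nephritic replicate 6 and prenephritic replicate 5, Acod1 was still higher in nephritic than in prenephritic arrays (1.94, adjusted p = 0.0290 by limma) and lower in remission than in nephritic arrays (−2.12, adjusted p = 0.0201). Leaving out remission replicate 2 brought the remission call to the threshold (−2.26, adjusted p = 0.04999). Some markers of other cells moved with Acod1. Those of B and plasma cells, monocytes and neutrophils are given here, and those of T cells and dendritic cells further below. Of 11 B and plasma cell markers, Jchain (2.76), Pou2af1 (2.34), Mzb1 (1.95), Sdc1 (0.95) and Cd79b (0.54) were higher in nephritic than in prenephritic arrays and Tnfrsf17 was lower (−1.73). Sdc1, Mzb1 and Pou2af1 were lower and Tnfrsf17 higher in remission than in nephritic arrays. The list mean ran from 7.29 to 7.45 in remission, from 7.65 to 8.33 in nephritic and from 6.98 to 7.91 in prenephritic arrays. Of 9 monocyte markers, Ccr2, Plac8, Spn and Hp were higher in nephritic than in prenephritic arrays and lower in remission than in nephritic arrays, and the list mean ran from 8.34 to 8.92 in remission, from 8.75 to 9.66 in nephritic and from 8.37 to 9.25 in prenephritic arrays. The part of either list in the Acod1 result was not tested. Of 9 neutrophil markers only Csf3r passed, in the same directions. The neutrophil list mean ran from 5.19 to 6.32 in remission, from 5.41 to 6.40 in nephritic and from 5.20 to 6.64 in prenephritic arrays, and 5 of the 9 (Mpo, Elane, Cxcr2, Ngp and Ltf) were below 4.99, the lower quartile of all probe set values, in every group mean. S100a8, S100a9, Camp and Csf3r were above it in every group mean, S100a8 at 7.25 in remission, 7.29 in nephritic and 7.45 in prenephritic arrays. Kidney tubule RNA was highest in remission (score of 32 tubule genes 0.04 to 1.29, against −1.96 to 0.51 in nephritic and −0.91 to 0.76 in prenephritic arrays). With that score in the model, Acod1 differed by 2.41 between nephritic and prenephritic arrays (adjusted p = 0.00414) and by −2.66 between remission and nephritic arrays (adjusted p = 0.0274).

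**Figure D1:**
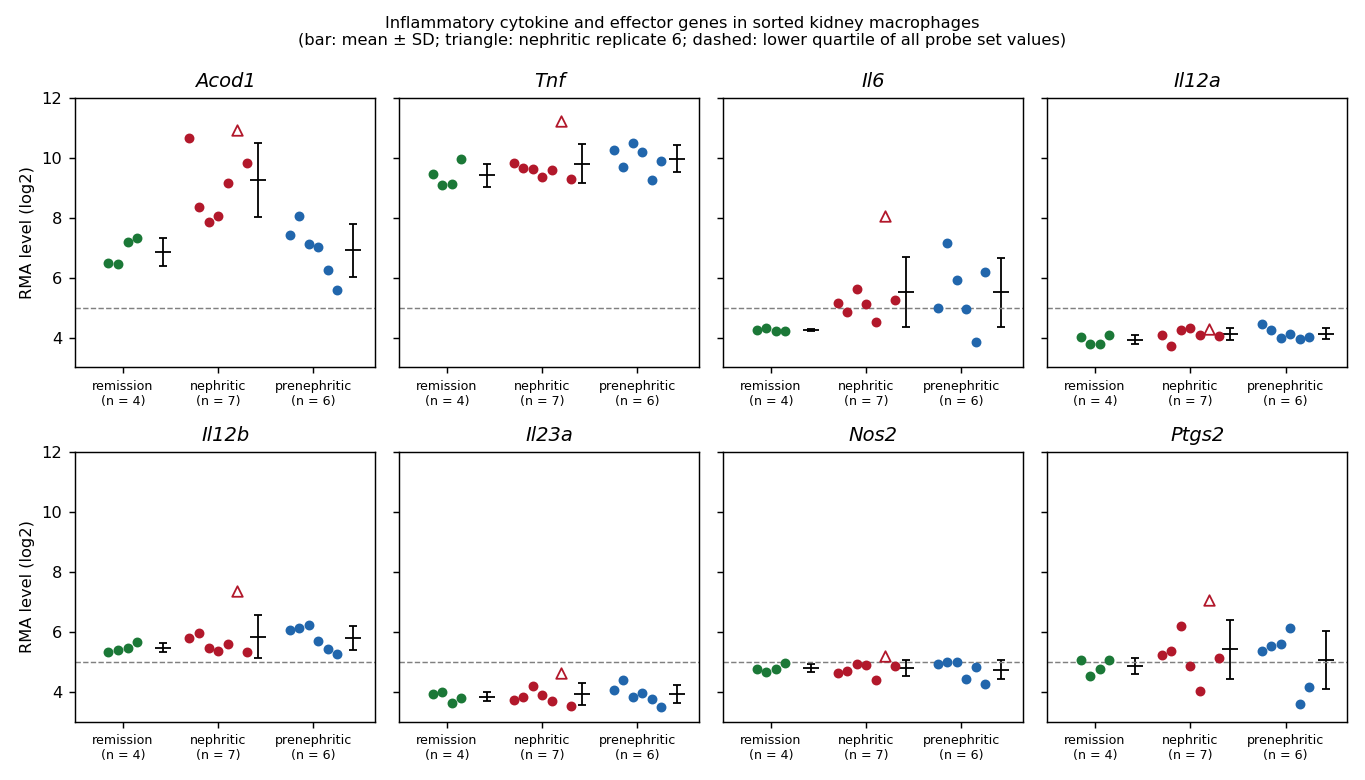
Log2 level of each of the 8 genes on every array, with remission, nephritic and prenephritic arrays from left to right in each panel. Points are arrays, with nephritic replicate 6 as a triangle, bars are group means with SD, and the dashed line marks the lower quartile of all probe set values (4.99). Acod1 averaged 9.26 in nephritic arrays, against 6.87 in remission and 6.91 in prenephritic arrays. The triangle is the top point for 7 genes.

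The upstream sequences of Acod1 and of 3 members that did not pass the test are shown, because they let the promoter of the gene that moved be set beside promoters of genes switched on by the same signals. Each is the 250 bases before the gene's start on the gene's strand, from RefSeq on build GRCm38.p6. Capitals mark matches on either strand to the letters TATAAA of a core promoter box, to a kappa B motif of NF-kB (GGG and TTTCC with 2 free bases between), to the AP-1 motif TGANTCA and to the C/EBP motif TTGCNNAA, where N is any base. Acod1 lies at chr14:103046762-103047011 on the plus strand, Tnf at chr17:35202008-35202257 on the minus strand, Il6 at chr5:30012864-30013113 on the plus strand and Ptgs2 at chr1:150099781-150100030 on the plus strand.
Acod1: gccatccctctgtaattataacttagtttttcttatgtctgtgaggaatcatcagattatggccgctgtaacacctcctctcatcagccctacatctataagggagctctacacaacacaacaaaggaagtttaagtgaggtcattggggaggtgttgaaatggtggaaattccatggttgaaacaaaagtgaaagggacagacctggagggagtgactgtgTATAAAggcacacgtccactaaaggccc
Tnf: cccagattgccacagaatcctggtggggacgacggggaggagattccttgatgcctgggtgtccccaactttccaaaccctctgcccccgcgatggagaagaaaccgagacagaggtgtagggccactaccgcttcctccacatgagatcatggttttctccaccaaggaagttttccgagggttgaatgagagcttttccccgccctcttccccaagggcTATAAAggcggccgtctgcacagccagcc
Il6: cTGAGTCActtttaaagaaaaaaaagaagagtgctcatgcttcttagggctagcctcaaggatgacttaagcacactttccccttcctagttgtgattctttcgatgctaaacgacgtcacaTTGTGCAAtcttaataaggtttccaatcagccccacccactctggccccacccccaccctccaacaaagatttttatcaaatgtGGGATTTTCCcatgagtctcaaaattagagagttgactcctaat
Ptgs2: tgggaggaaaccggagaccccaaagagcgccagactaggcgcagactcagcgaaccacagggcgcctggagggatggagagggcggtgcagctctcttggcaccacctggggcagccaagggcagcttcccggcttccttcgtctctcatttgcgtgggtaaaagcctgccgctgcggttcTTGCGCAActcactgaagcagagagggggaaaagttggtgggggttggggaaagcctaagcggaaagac
Acod1 and Tnf each held TATAAA, 28 and 29 bases upstream. Il6 held the kappa B match GGGATTTTCC 44 bases upstream, the C/EBP match TTGTGCAA 128 bases upstream and the AP-1 match TGAGTCA 249 bases upstream, and Ptgs2 the C/EBP match TTGCGCAA 69 bases upstream. The same letters occur in 12.4% (TATAAA), 1.41% (kappa B), 6.75% (AP-1) and 9.56% (C/EBP) of 32851 upstream windows of this length. Searches for an interferon response motif (GAAA repeated after 2 free bases, in 2.98% of windows), the cyclic AMP response motif TGACGTCA (1.55%) and the STAT motif TTCNNNGAA (7.02%) found no match in any member's window, and the windows of Il12b and Il12a held none of the motifs searched. No overlapping matches occurred. A match describes letters and not a bound site, and 6 of the 8 genes were matched in the sequence table. Only the letters given were searched, so a window without a match can still hold a looser form of a motif.

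The secreted cytokines Tnf and Il6 did not pass the test in any comparison. Tnf stood at 9.09, 9.13, 9.46 and 9.95 in remission arrays. Its nephritic levels ran from 9.29 through a median of 9.63 to 11.24, and its prenephritic levels from 9.25 through 10.03 to 10.49. The 3 groups overlapped, and 6 of the 7 nephritic arrays lay at or below 9.84 with replicate 6 alone above. The nephritic minus prenephritic difference was −0.16 ± 0.28 (interval −0.75 to 0.44, adjusted p = 0.798 by limma), and without nephritic replicate 6 and prenephritic replicate 5 it was −0.54 (adjusted p = 0.0715). Remission minus nephritic was −0.40 ± 0.31 (interval −1.06 to 0.27, adjusted p = 0.444), or −0.16 without both arrays. Remission minus prenephritic was −0.55 ± 0.32 (adjusted p = 0.350).

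Il6 was spread widely over the nephritic and prenephritic arrays and narrowly over the remission arrays. The remission arrays read 4.21, 4.23, 4.25 and 4.30, a range of 1.07-fold. The nephritic arrays ran from 4.53 through 5.14 to 8.04 (11.4-fold), and the prenephritic arrays from 3.86 through 5.46 to 7.16 (9.79-fold). Every remission array lay below every nephritic array, while prenephritic replicate 5 lay below the remission arrays. The difference remission minus nephritic was −1.26 ± 0.60 (interval −2.52 to 0.0014, adjusted p = 0.170), which did not pass. It was −0.84 without nephritic replicate 6 and prenephritic replicate 5 (adjusted p = 0.120). Remission minus prenephritic was −1.27 ± 0.61 (adjusted p = 0.273) and nephritic minus prenephritic −0.01 ± 0.53 (interval −1.13 to 1.11, adjusted p = 0.993). The remission levels were below the lower quartile of all probe set values, where the array resolves little, so the size of any fall is uncertain. Groups that do not overlap were found for 2 of the 8 genes, Acod1 and Il6, between remission and nephritic arrays, where 8.65% of all genes had them, and for none of the 8 in the other comparisons (4.68% of all genes between nephritic and prenephritic and 2.32% between remission and prenephritic arrays).

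None of the interleukin-12 family subunits passed in any comparison. Il12b, the subunit shared by interleukin-12 and interleukin-23, read 5.32, 5.40, 5.47 and 5.67 in remission arrays. Its nephritic levels ran from 5.34 through 5.59 to 7.38 and its prenephritic levels from 5.26 through 5.88 to 6.23. The groups overlapped apart from nephritic replicate 6, which was above all others. Il12b differed by 0.04 ± 0.27 between nephritic and prenephritic arrays (interval −0.54 to 0.62, adjusted p = 0.952 by limma) and by −0.38 ± 0.31 between remission and nephritic arrays (interval −1.03 to 0.28, adjusted p = 0.459). Without nephritic replicate 6 and prenephritic replicate 5 these were −0.29 (adjusted p = 0.367) and −0.12 (adjusted p = 0.709).

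Il12a, the other interleukin-12 subunit, and Il23a, the subunit particular to interleukin-23, had group means below the lower quartile of all probe set values in all 3 groups. Il12a spanned 3.80 to 4.10 in remission, 3.72 to 4.31 in nephritic and 3.95 to 4.45 in prenephritic arrays. Il23a spanned 3.64 to 4.00, 3.54 to 4.64 and 3.50 to 4.40 in the same order of groups. Both overlapped throughout. Their differences lay between −0.21 and 0.01 over the 3 comparisons, with adjusted p from 0.300 to 0.983, and at this signal a difference was not detectable rather than shown to be absent.

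Of the enzymes other than Acod1, Nos2 was dim and level. It read 4.65, 4.76, 4.77 and 4.96 in remission arrays, from 4.39 through 4.86 to 5.18 in nephritic arrays and from 4.27 through 4.87 to 5.01 in prenephritic arrays. All groups overlapped, and all group means were below the lower quartile of all probe set values. The differences were 0.05 ± 0.14 (nephritic minus prenephritic, interval −0.24 to 0.34, adjusted p = 0.871 by limma) and −0.01 ± 0.15 (remission minus nephritic, interval −0.33 to 0.32, adjusted p = 0.981). Ptgs2, the inducible first enzyme of prostanoid synthesis, read 4.52, 4.74, 5.06 and 5.07 in remission arrays, from 4.04 through 5.23 to 7.08 in nephritic and from 3.59 through 5.43 to 6.14 in prenephritic arrays. Its groups overlapped, with nephritic replicate 6 the highest and prenephritic replicate 5 the lowest array. It differed by 0.36 ± 0.45 between nephritic and prenephritic arrays (interval −0.60 to 1.31, adjusted p = 0.693), or by −0.22 without those 2 arrays, and by −0.57 ± 0.51 between remission and nephritic arrays (interval −1.64 to 0.50, adjusted p = 0.504). The last value was −0.29 without nephritic replicate 6 and −0.18 with the tubule score in the model.

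**Figure D2:**
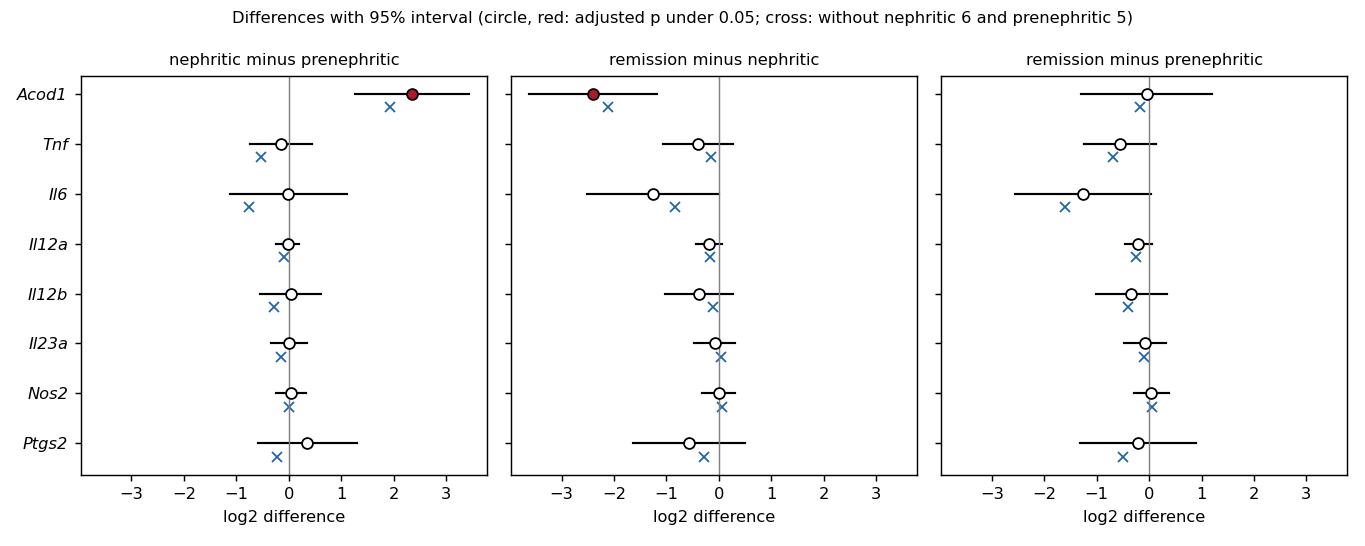
Log2 difference of each of the 8 genes with its 95% interval in the 3 comparisons, with filled points where the adjusted p was under 0.05 and crosses for the value without nephritic replicate 6 and prenephritic replicate 5. Acod1 is the filled point at 2.35 (nephritic minus prenephritic) and at −2.40 (remission minus nephritic), and no gene is filled in remission minus prenephritic.

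Counted together, 1 of the 8 genes passed between nephritic and prenephritic arrays and 1 between remission and nephritic arrays, both times Acod1. That is 12.5% of the list, beside 12.1% and 13.3% of all genes. None passed between remission and prenephritic arrays, where the 8 unadjusted p-values were all above 0.05. The median difference of the 8 was 0.03 between nephritic and prenephritic arrays, −0.39 between remission and nephritic arrays and −0.21 between remission and prenephritic arrays. Over all genes the medians were −0.02, −0.03 and −0.05. All 8 estimates were below 0 in remission minus nephritic, and 7 of 8 in remission minus prenephritic, Nos2 being the exception at 0.04. In the first of these, Nos2 and Il23a were above 0 (0.06 and 0.04) once nephritic replicate 6 and prenephritic replicate 5 were left out. Since the 8 genes varied together within groups, as given next, their signs are not separate pieces of evidence. The share of all genes with an estimate below 0 is not given here.

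Within groups the 8 genes tended to be high or low on the same arrays. With group means removed, Pearson's r over the 17 arrays was above 0 in all 28 pairs, from 0.24 to 0.85, and above 0 in all 28 without nephritic replicate 6. Without the 2 arrays farthest from the median of a pair's first gene it was above 0 in 26 of 28, from −0.19 (Il23a and Acod1) to 0.62, and Il6 and Acod1 had −0.08. For r without 2 arrays the group means were those of all 17 arrays and were not taken again. Such an r can therefore still hold an offset between groups that the arrays left out had made. Permuting values within groups (two-sided, 100000 resamples, adjusted over the 28 pairs), 3 pairs passed by Pearson's r and none by Spearman's rho. Tnf and Il12b had r = 0.845 and rho = 0.60 (permutation p = 0.0034, adjusted 0.048 for r; p = 0.015, adjusted 0.11 for rho), and r = 0.604 without the 2 arrays farthest from the median of Tnf. Tnf and Ptgs2 had r = 0.729 and rho = 0.674 (permutation p = 0.0037, adjusted 0.048; p = 0.0053, adjusted 0.10), and r = 0.617 without those arrays. Il12b and Acod1 had r = 0.675 and rho = 0.625 (permutation p = 0.0051, adjusted 0.048; p = 0.017, adjusted 0.11), and r = 0.592 without the 2 arrays farthest from the median of Il12b. Tnf and Acod1 did not pass (r = 0.519, permutation p = 0.053, adjusted 0.11; rho = 0.353, p = 0.18, adjusted 0.28), and r was 0.248 without the 2 farthest arrays. With group means taken again without nephritic replicate 6 alone, r was 0.58 for Tnf and Il12b and 0.574 for Tnf and Ptgs2. It was 0.563 for Il12b and Acod1 and 0.264 for Tnf and Acod1. Arrays share hybridisation and immediate early levels as well as biology, and the part of either was not tested.

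**Figure D3:**
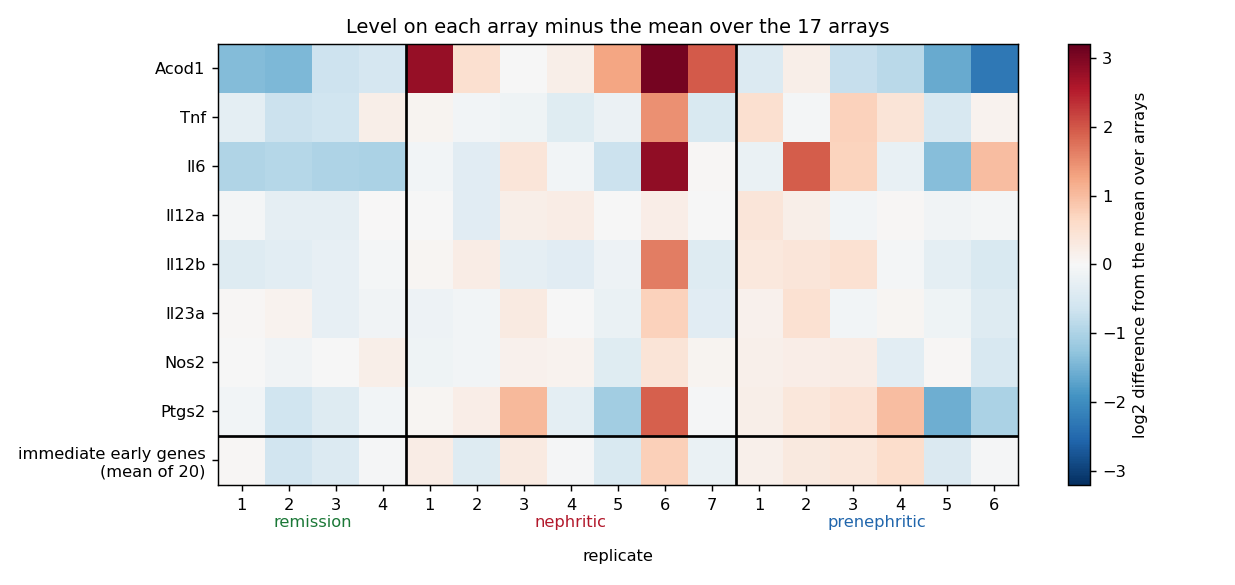
Each of the 8 genes on each array as the log2 deviation from its mean over the 17 arrays, with the mean of 20 immediate early genes in the last row and arrays ordered remission, nephritic, prenephritic from left to right. Nephritic replicate 6 has the highest value of the row for 7 genes, and the Acod1 row is highest in nephritic replicates 1, 6 and 7.

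The genes most like each of the brighter members were named by Pearson's r over the 17 arrays, as a description with no test. Acod1 was most like Mcemp1, a membrane protein of myeloid cells (r = 0.950), and Lmo4, a LIM-domain cofactor of transcription (r = 0.944). Both were themselves higher in nephritic than in prenephritic arrays (0.96 and 1.03, adjusted p = 0.0478 and 0.000700 by limma) and lower in remission than in nephritic arrays (−1.17 and −0.96, adjusted p = 0.0310 and 0.00335). Group means were not removed for this r, so genes chosen as most like Acod1 tend to share its group differences. These p-values are therefore not separate evidence. Without nephritic replicate 6 the r of Mcemp1 and Lmo4 was 0.938 and 0.941. Tnf was most like Xpo4, Tiparp and Spty2d1 (r = 0.885, 0.883 and 0.876), and Il6 most like Lrrc73, Ccno and Ifnab (r = 0.861, 0.853 and 0.840). Il12b was most like Fosl1, an AP-1 subunit, Ifng, which encodes interferon-gamma, and Map2k3, a kinase of the p38 pathway (r = 0.900, 0.900 and 0.890). Ptgs2 was most like Cd69, an early activation antigen, Eya2 and Atf4 (r = 0.898, 0.871 and 0.863). None of these 12 genes passed in either comparison, and without nephritic replicate 6 their r ran lower, from 0.684 (Ifng) to 0.842 (Cd69). Of the marker lists, those of T cells, conventional dendritic cells, neutrophils (6.40), endothelium (7.86) and distal tubule (9.78) had their highest nephritic mean in nephritic replicate 6. The T cell list of 8 genes had means of 5.17 to 5.43 in remission, 5.36 to 5.91 in nephritic and 5.29 to 5.59 in prenephritic arrays. Of these 8, 3 were higher and 1 lower in nephritic than in prenephritic arrays, and 1 was higher and 4 lower in remission than in nephritic arrays. The dendritic cell list of 7 genes had means of 5.43 to 6.79 in remission, 6.10 to 7.47 in nephritic and 5.83 to 8.37 in prenephritic arrays. Of these 7, 1 was higher and 2 lower in nephritic than in prenephritic arrays, and none was higher and 2 lower in remission than in nephritic arrays. Their part in these values was not tested.

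Genes that act around each member were read from 9 lists with 120 measured entries, in which a gene such as Socs3 can stand in more than 1 list. The list medians lay between −0.19 (interleukin-12 family) and 0.21 (NF-kB) in nephritic minus prenephritic and between −0.55 (NF-kB) and 0.18 (itaconate) in remission minus nephritic, where the medians of all genes were −0.02 and −0.03. The counts below stand beside 12.1% of all genes passing in the first comparison and 13.3% in the second, and the smaller counts are close to those shares. Around Tnf, 3 of 10 genes of release, receptors and signalling were higher in nephritic than in prenephritic arrays and 1 was lower. Rhbdf2, the iRhom2 protein that carries the TNF-releasing protease to the surface, averaged 7.59 ± 0.31 in remission, 9.10 ± 0.16 in nephritic and 7.76 ± 0.15 in prenephritic arrays. It rose 2.53-fold in nephritis (1.34 ± 0.11, adjusted p = 3.19e-06 by limma) and fell by 1.51 ± 0.12 on the log2 scale in remission (adjusted p = 1.10e-05). Adam17, the protease itself, rose by 0.38 ± 0.08 (adjusted p = 0.00667) and fell by 0.40 ± 0.09 in remission (adjusted p = 0.0109), while Rhbdf1, the related iRhom1, fell by 0.50 ± 0.14 in nephritis (adjusted p = 0.0238). The signalling kinase Map3k7 rose by 0.20. The receptors Tnfrsf1a and Tnfrsf1b differed by 0.18 and 0.25 between nephritic and prenephritic arrays and did not pass (adjusted p = 0.238 and 0.259). In remission 4 of 10 were lower than in nephritis, namely Rhbdf2, Adam17, Map3k7 and the adaptor Traf2.

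Of 15 NF-kB subunits and response genes, 6 were higher in nephritic than in prenephritic arrays and none lower. Bcl3, a nuclear cofactor of NF-kB p50 and p52, rose by 1.32 ± 0.17 (adjusted p = 9.35e-05 by limma), and the alternative-pathway subunits Relb and Nfkb2 by 0.68 ± 0.16 and 0.51 ± 0.12 (adjusted p = 0.0111 and 0.0127). Tnfaip2, the adhesion molecule Icam1 and the ubiquitin ligase Birc3 made up the rest. In remission 6 of 15 were lower than in nephritis, with Traf1 in place of Tnfaip2. Nfkbia and Tnfaip3, the classical feedback inhibitors, did not pass (0.17 and 0.15 in nephritic minus prenephritic). The first count fell to 2 of 15, 1 higher and 1 lower, without nephritic replicate 6 and prenephritic replicate 5, while that for remission stayed at 6.

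Of 8 genes of interleukin-6 reception, the transcription factor Stat3 and its feedback inhibitor Socs3 were higher in nephritic than in prenephritic arrays, although Il6 itself did not pass. Stat3 averaged 9.82 ± 0.22 in remission, 10.62 ± 0.14 in nephritic and 9.98 ± 0.13 in prenephritic arrays (nephritic minus prenephritic 0.64 ± 0.09, adjusted p = 0.000197 by limma). Socs3 rose by 1.31 ± 0.34 (adjusted p = 0.0181). Both fell in remission, by 0.79 ± 0.10 and 1.44 ± 0.38, as did Jak2. The receptor chains Il6ra and Il6st differed by 0.03 and 0.03 and did not pass. The nephritic count was 1 of 8 without nephritic replicate 6 and prenephritic replicate 5.

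Of 10 partners of the interleukin-12 family, Il27ra, a receptor chain for interleukin-27, was higher in nephritic than in prenephritic arrays (1.63 ± 0.20, 3.09-fold, adjusted p = 6.65e-05 by limma) and lower in remission (−1.91 ± 0.22, adjusted p = 9.76e-05). Irf8, a factor for Il12b transcription and myeloid identity, was lower in nephritic than in prenephritic arrays (−0.42 ± 0.13, adjusted p = 0.0390). Without nephritic replicate 6 and prenephritic replicate 5 the count in nephritis was 1 of 10 in place of 2.

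Around Nos2, 2 of 15 genes of arginine and nitric oxide metabolism were higher in nephritic than in prenephritic arrays, a share close to the 12.1% of all genes that passed. They were the mitochondrial arginase Arg2 (1.18 ± 0.33, adjusted p = 0.0266 by limma) and the dim arginine carrier Slc7a2. In remission Gchfr was higher than in nephritis and Gch1, Slc7a1 and Slc7a2 were lower, Gch1 making the cofactor of nitric oxide synthases and Gchfr restraining it. The nephritic count was 0 of 15 without nephritic replicate 6 and prenephritic replicate 5, and the remission count was 0 of 15 with the tubule score in the model.

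Around Ptgs2, 3 of 20 genes of prostanoids and other lipid mediators were higher in nephritic than in prenephritic arrays and 1 was lower. Pla2g7, 1 of the 3, is not a prostanoid gene. The prostaglandin E2 receptor Ptger2 averaged 6.51 ± 0.62 in remission, 8.26 ± 0.33 in nephritic and 6.41 ± 0.61 in prenephritic arrays, a rise of 1.85 ± 0.27 in nephritis (adjusted p = 0.000256 by limma) and a fall of 1.75 ± 0.30 in remission (adjusted p = 0.00131). Ptger4, another E2 receptor, rose by 0.65 in nephritis. In remission 2 of 20 were higher and 3 lower than in nephritis. Ptger3, a further E2 receptor, was the largest of these changes, 3.72-fold higher in remission than in nephritic arrays (1.90 ± 0.59, adjusted p = 0.0431), and it did not pass between nephritic and prenephritic arrays (−0.60, adjusted p = 0.541). Its levels ran from 8.33 to 10.66 in remission, from 5.46 to 8.88 in nephritic and from 7.08 to 9.38 in prenephritic arrays. Kidney tubule RNA was also highest in remission, and its part in the Ptger3 change was not tested. Pla2g7, which breaks down platelet-activating factor, rose by 1.52 ± 0.16 (adjusted p = 2.34e-05) and was lower again in remission (−1.27 ± 0.18). Hpgd, which inactivates prostaglandins, did the opposite. It was 2.60-fold lower in nephritic than in prenephritic arrays (−1.38 ± 0.19, adjusted p = 0.000214) and 2.31-fold higher in remission than in nephritic arrays (1.21 ± 0.22, adjusted p = 0.00182). The synthases Ptges, Ptges2 and Ptges3 differed by 0.26, 0.11 and −0.01 and did not pass.

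Around Acod1, none of 13 genes of the Krebs cycle, itaconate breakdown and the itaconate-sensing factor passed between nephritic and prenephritic arrays, where 12.1% of all genes did, and 4 succinate dehydrogenase subunits (Sdha to Sdhd) differed by −0.07 to 0.27. With the tubule score in the model 2 of 13 were higher. In remission Nfe2l2, which encodes NRF2, was lower than in nephritis (−0.30 ± 0.09, adjusted p = 0.0312 by limma). It did not pass with the tubule score in the model.

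Of 14 brakes on inflammatory genes, Il10, Il1rn, Socs3 and Irak3 were higher in nephritic than in prenephritic arrays and lower in remission than in nephritic arrays. Irak3, an inhibitor of Toll-like receptor signalling, changed by 1.06 ± 0.19 (adjusted p = 0.00142 by limma) and −1.13 ± 0.21 (adjusted p = 0.00251). The mean of these 14 genes was highest of the nephritic arrays in nephritic replicate 6 (10.47). It was lowest of the prenephritic arrays in prenephritic replicate 5 (8.98), and a count without those arrays is not given here. Of 15 other proinflammatory cytokines, Il18, Il15 and Ltb were lower in nephritic than in prenephritic arrays, by 0.34, 0.38 and 0.61, and none was higher. None of those 3 passed without nephritic replicate 6 and prenephritic replicate 5. Il1a stood at 4.14 ± 0.37 in remission, 6.06 ± 1.49 in nephritic and 5.29 ± 0.97 in prenephritic arrays and passed in neither comparison (remission minus nephritic −1.92 ± 0.66, adjusted p = 0.0653). In remission minus prenephritic no gene of any of the 9 lists passed.

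**Figure D4:**
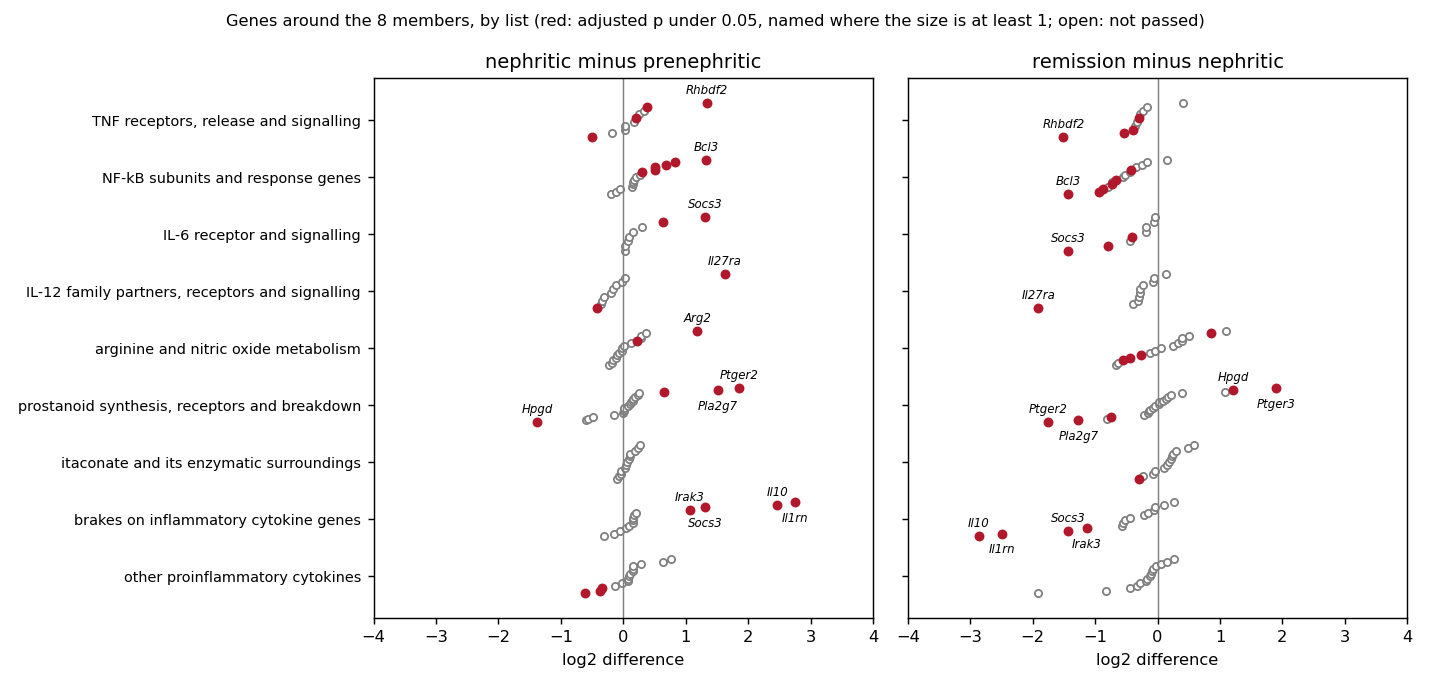
Log2 difference of every measured gene in the 9 lists, for nephritic minus prenephritic (left) and remission minus nephritic (right). Filled points had an adjusted p under 0.05 and are named where the size was at least 1. Il1rn and Il10 lie farthest right in nephritis (2.75 and 2.47), and the itaconate list has no filled point there.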

How the data were processed

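Kidney macrophages were profiled on Affymetrix arrays, 1 per sample (17 arrays). The authors deposited log2 values made by RMA according to the submitters' processing notes, without a version. Probe definition and build: not given in the sources used here. RMA equalises the arrays' distributions, which hides any change in total RNA per cell. Of 16539 probe sets, 15780 had 1 gene symbol in GEO's platform annotation, 695 had none and 64 were controls. Groups and replicate numbers came from the sample titles. Precision is limited by the number of arrays.

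All 17 arrays entered a single linear model, with group means as coefficients, in limma 3.58.1 (lmFit, eBayes; R 4.3.3), with 14 residual degrees of freedom and two-sided tests. P-values were adjusted by Benjamini-Hochberg over the 15780 genes (threshold 0.05), with no filter on level. The fit was tested on simulated data. The 8 genes, the lists and the tests were chosen with earlier results of these data known. Named were the 8 genes, up to 3 genes of each list with the smallest p in each of the first 2 comparisons, the 3 genes most like each member whose mean reached 4.99 (the lower quartile of all values) in any group, and 4 macrophage markers. One gene that this rule names is not reported here. Genes named beyond this rule, which make up a count or are receptors, synthases or markers, were chosen after their values were seen. Alternatives changed the filter, the normalization, the variance prior, the weights, the arrays and the covariates. Counts of list genes without 2 arrays or with the tubule score were added after seeing the data.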

Additional observations from a re-analysis of the deposited data

Results flagged for a closer look

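In 4 of the 24 groups of values (8 genes in 3 groups), 1 array lay far from the others of its group by Dixon's test, which chance gives in about 1 of 20 groups. Tnf in nephritic replicate 6 was 11.24, with the next nephritic array at 9.84. Il6 in the same array was 8.04, with the next at 5.61. Il12b there was 7.38, with the next at 5.98. These 3 flags come from a single array and are not independent. Il12a in nephritic replicate 2 was 3.72, with the next lowest nephritic array at 4.07, at a level below the lower quartile of all probe set values.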

How the results depend on the processing

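Acod1 passed in both comparisons with the nephritic arrays under all 28 alternatives, with adjusted p from 0.00277 to 0.0410 (nephritic minus prenephritic) and from 0.00381 to 0.04999 (remission minus nephritic), and no other member passed under any. The members that passed thus stayed at 1, 1 and 0. The count over all genes moved more. In nephritic minus prenephritic, 1904 genes passed, 730 with at least 1.5-fold, 1236 without nephritic replicate 6 and prenephritic replicate 5, and 3004 with the tubule score, with 1466 to 2032 when each array was left out. In remission minus nephritic, 2100 passed, 3624 with array weights, 957 with at least 1.5-fold and 1273 with the tubule score, with 1021 to 2921 when each array was left out (1021 without remission replicate 2 and 1121 without replicate 1). In remission minus prenephritic, 1 passed (2946 at an unadjusted p under 0.05). It was 5 with quantile normalization repeated, 3 with array medians subtracted or another variance prior, and 358 with array weights. It was 0 with only the groups compared (2732 unadjusted), without nephritic replicate 6 and prenephritic replicate 5 (2472) and with the tubule score (1072), and 0 to 199 when each array was left out, 199 being without prenephritic replicate 6. The share of higher calls in remission minus nephritic was 24.6%, and 36.9% with the replicate block and 37.6% with the tubule score. The cause of these moves was not tested.

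The labels do not say what the replicate numbers share. Deviations of same-numbered arrays correlated above 0.1 in 3 of 6, 3 of 4 and 2 of 4 pairs of the 3 comparisons (−0.26 to 0.80, 0.05 to 0.54 and −0.07 to 0.39), and 2 of 12, 5 of 8 and 3 of 8 arrays correlated best with their own number. As not every pair was above 0.1, the numbers were not used as pairs. With the replicate block, 1700, 2887 and 478 genes passed, and Acod1 differed by 2.25 (adjusted p = 0.0410) and −2.33 (adjusted p = 0.0464).

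Members that did not pass changed sign in some fits. In nephritic minus prenephritic Il6 was 0.039 (quantile), 0.031 (replicate block) and 0.033 (tubule score), Il12a 0.0087 (quantile), Il12b −0.11 (weights), Il23a −0.070 (weights) and −0.0047 (tubule score), and Nos2 −0.0030 (tubule score). Leaving out each array, or both named arrays together, gave −0.76 to 0.32 for Il6, −0.043 to 0.12 for Nos2, −0.083 to 0.048 for Il12a, −0.29 to 0.13 for Il12b, −0.14 to 0.11 for Il23a and −0.22 to 0.59 for Ptgs2. In remission minus nephritic Nos2 was 0.0030 (quantile) and 0.23 (tubule score), with −0.076 to 0.057 for Nos2 and −0.15 to 0.035 for Il23a when arrays were left out. In remission minus prenephritic Nos2 was −0.0095 (weights) and −0.0053 (replicate block) and Ptgs2 0.088 (tubule score). Leaving out arrays there gave −0.31 to 0.18 for Acod1, −0.051 to 0.097 for Nos2, −0.16 to 0.022 for Il23a and −0.51 to 0.0049 for Ptgs2.

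Signal over background limits Nos2, Il12a and Il23a, below the lower quartile in every group, and Il6 and Ptgs2 in remission.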
